A study of Mus musculus with 3 samples.

Results

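The replication-dependent histone genes are the genes whose symbol begins with Hist1h, Hist2h, Hist3h or Hist4h in the gene lists of 3 single-cell RNA libraries of mouse thymocytes. There were 68 such symbols among 34236 listed over the libraries: 6 for the linker histone H1, 19 for H2A, 18 for H2B, 12 for H3 and 13 for H4. Of these, 55 lie on chromosome 13, 10 on chromosome 3, 2 on chromosome 11 and 1 on chromosome 6. In runs 1, 2 and 3, 64 of 68, 66 of 68 and 65 of 67 listed members had at least 1 UMI, the molecular tag by which each captured transcript is counted once. Hist1h2bq was at 0 in every run. Only 2.68% of the 50-base windows of its transcripts occurred in no other gene, so the 0 does not show that it was silent. Hist1h2al, annotated as a processed pseudogene, was listed in runs 1 and 2 but not in run 3.

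Histones H2A, H2B, H3 and H4 form the nucleosome core around which DNA is wrapped, and H1 binds the linker DNA between cores. Most of their genes are transcribed in quantity while DNA is copied, so that new DNA can be packed. Their mRNAs usually carry no poly(A) tail and end shortly after a stem-loop, which the stem-loop binding protein Slbp holds. A minority of the genes can also be read through to a poly(A) signal and then give tailed mRNA in cells that do not divide. A library primed on poly(A) captures the tailless form only where priming falls on an internal run of A.

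The cells were CD4- CD8- double-negative (DN) and TCRγδ+ thymocytes from C57BL/6 mice at 6 weeks, with 4 thymi pooled for each library. DN cells pass through the stages DN1 to DN4: CD25, the product of Il2ra, is present at DN2 and DN3, and CD44 at DN1 and DN2. Run 1 held all DN cells with TCRγδ+ cells, run 2 held DN1 and DN2 cells without TCRγδ+ cells, and run 3 held DN1 with DN2, DN3 and TCRγδ+ cells that were sorted apart and then mixed. No library came from a treated or mutant animal, and each sort was made once, so the runs differ in the cells sorted, run 3 also in its gene list, and the kit of each run is not given, and these cannot be told apart.

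A cell was kept if 500 to 5000 genes were detected and no more than 7% of its UMIs were mitochondrial, which left 5516 in run 1, 8852 in run 2 and 7511 in run 3. The files held 39947415, 52797915 and 98533329 UMIs, and the kept cells had medians of 5989.5, 4844 and 8507. Runs 1 and 2 shared 72 cell barcodes, 1.30% of the smaller library, runs 1 and 3 shared 3, and runs 2 and 3 shared 0. What this overlap says of the kits was not tested. Cells were sorted by transcripts into 5 gates: Il7r/Cd44+ Il2ra- (aimed at DN1), Il2ra+Ptcra- (DN2), Il2ra+Ptcra+ (DN3), Ptcra/Cd8+ Il2ra- (DN4, or DN3 with Il2ra missed) and Trdc-high (TCRγδ). Markers that no gate used followed these aims only in part, so the gates are called by their genes throughout. Levels are given in CPM, UMI counts scaled to the total of the class. The DN1 markers Ly6a, Flt3 and Hhex summed to 465 and 391 CPM in the Il7r/Cd44+ Il2ra- cells of runs 2 and 3, the highest of the gates, but to 27.8 in run 1, where Flt3 was at 0 and the Il2ra+Ptcra- cells had 38.7. The DN2 list was highest in the Il2ra+Ptcra- gate in run 1 but in the Trdc-high gate in runs 2 and 3, at 689 and 502 CPM against 597 and 439.7. The DN3 list was highest in the Il2ra+Ptcra+ gate in runs 1 and 3 but in the Ptcra/Cd8+ Il2ra- gate in run 2, at 360.4 CPM against 317. The DN4 list was highest in the Ptcra/Cd8+ Il2ra- gate in no run, and the TCRγδ list was highest in the Trdc-high gate in runs 2 and 3 but in the Il2ra+Ptcra- gate in run 1, at 1683 CPM against 1052. Cells outside the gates, 536, 1003 and 187 in runs 1, 2 and 3, and B-like, myeloid-like and erythroid-like cells entered no class. Gated cells with at least 1 UMI of both Mki67 and Top2a, which dividing cells make, are called cycling and gated cells with neither are called resting.

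The stem-loop, what lies beyond it and internal runs of A bear on whether a histone mRNA can be captured on poly(A). Representative stretches are therefore shown, and which form was captured was not tested. The stem-loop pattern was found in annotated transcripts of 46 members (GENCODE M21, GRCm38), and the 3 most common forms of its 16 bases were shared by 26, 7 and 6 members. Below, one member stands for each of these forms, with the stem-loop in capitals, and these stretches lie in 3′ UTRs on chromosome 13.
Hist1h2ae, chr13:23570663-23570688, minus strand: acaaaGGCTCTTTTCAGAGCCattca
Hist1h4d, chr13:23581945-23581970, plus strand: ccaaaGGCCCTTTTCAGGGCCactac
Hist1h3c, chr13:23745042-23745067, minus strand: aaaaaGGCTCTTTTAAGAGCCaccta
The longest annotated transcript went on for 151 bases past the stem-loop in Hist1h2ae, 770 in Hist1h4d and 74 in Hist1h3c. Of the 46 members, 23 were annotated to 100 bases or fewer past it and 23 to more.

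The member with the most UMIs in every run, Hist1h2ap, has a run of 12 A directly before its stem-loop, 26 bases after the stop codon. The same stretch is in its near-identical neighbour Hist1h2ao, and Hist1h2ae has a run of 8. Capitals mark the A run.
Hist1h2ap, chr13:21833036-21833065, minus strand: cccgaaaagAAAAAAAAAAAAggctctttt
Hist1h2ao, chr13:21810877-21810906, plus strand: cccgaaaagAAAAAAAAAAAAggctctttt
Hist1h2ae, chr13:23570677-23570706, minus strand: tctaatctcgtAAAAAAAAcaaaggctctt
Only 6.93% of the 50-base windows of Hist1h2ap transcripts occurred in no other gene, and 6.5% of those of Hist1h2ao. Over all members, 33 of 68 had under 50% of such windows to themselves. Counts of these members are uncertain between copies, and 7 members also overlap another gene on the same strand. Coding sequences were alike within families, with a median identity over pairs of 96.4% for H2A, 96.6% for H2B, 97.2% for H3 and 93.9% for H4.

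Histone UMIs were concentrated in few genes, and which genes these were differed between runs. Hist1h2ap, an H2A gene, held 46.2% of the histone UMIs of run 1, 60.5% of run 2 and 23.7% of run 3. Hist1h2ae, another H2A gene, held 2.83%, 1.49% and 16.8%, and Hist1h1b, an H1 gene, held 3.28%, 1.18% and 11.7%. Run 3 thus spread its histone UMIs over more genes. Hist1h2al held 14.7% in run 1 and 1.13% in run 2. The 10 leading members of each run held 81.5%, 84.2% and 78.2%.

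**Figure D1:**
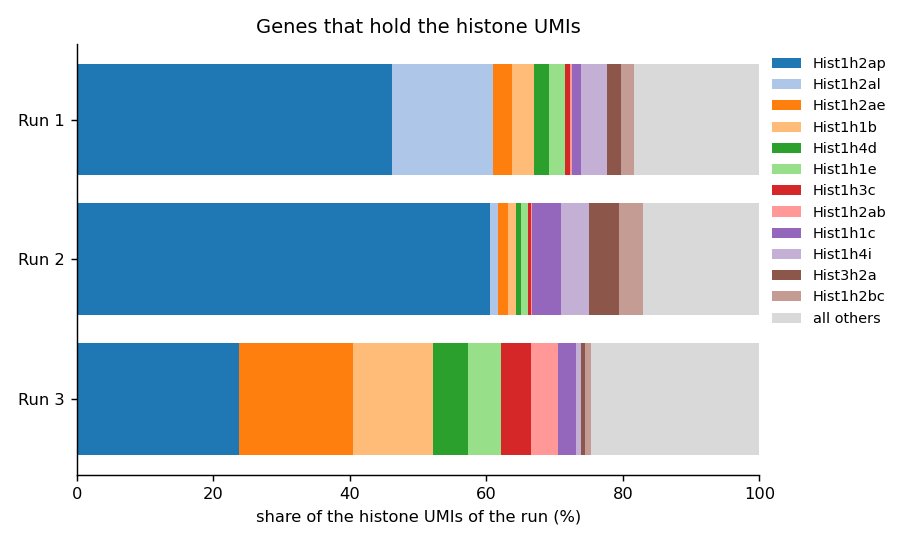
Share of each run's histone UMIs (x axis, percent) held by 12 named members and by all others, 1 bar per run. Hist1h2ap takes 46.2%, 60.5% and 23.7% of runs 1, 2 and 3, while Hist1h2ae and Hist1h1b together are wide only in run 3.

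Cycling cells held more histone transcripts than resting cells in every run. Summed over the members, the level was 1871 CPM in the 1613 cycling cells of run 1, 2371 in the 1283 of run 2 and 12415 in the 1549 of run 3. In resting cells it was 468, 410.3 and 1403 CPM. Cells with a UMI of only Mki67 or only Top2a lay between, at 1067, 1211 and 1600 CPM. The ratio of cycling to resting was 4.0 (95% interval 3.87 to 4.13) in run 1, 5.78 (5.65 to 5.91) in run 2 and 8.85 (8.75 to 8.94) in run 3. With Hist1h2ap left out of the sum it was 2.81, 2.53 and 8.50. These intervals and all that follow cover counting error only. When every cell was thinned to 2000 UMIs, the median cycling cell had 3, 5 and 17 histone UMIs and the median resting cell 1, 0 and 2.

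The levels of cycling cells were alike across gates within a run and far apart between runs. In run 1 they ran from 1651 CPM in the Il7r/Cd44+ Il2ra- gate to 1995 in the Il2ra+Ptcra- gate. In run 2 they ran from 2231 CPM in the Ptcra/Cd8+ Il2ra- gate to 2447 in the Il2ra+Ptcra- gate. In run 3 the lowest was again the Il7r/Cd44+ Il2ra- gate, at 9879 CPM, and the highest the Il2ra+Ptcra- gate, at 12849. The Il2ra+Ptcra- gate was therefore highest in each run, but its counting interval overlapped that of the next gate in each, Trdc-high in runs 1 and 2 and Il2ra+Ptcra+ in run 3. The cycling Il7r/Cd44+ Il2ra- cells numbered 29, 38 and 111. Among resting cells the Il7r/Cd44+ Il2ra- gate of runs 2 and 3 was lowest, at 214 and 842 CPM, against 526 and 2092 in the Il2ra+Ptcra+ gate. In run 1 the Trdc-high gate was lowest at 374 CPM, and the Il7r/Cd44+ Il2ra- and Il2ra+Ptcra+ gates had 408 and 467. With 1 library a run, these levels were not tested between runs.

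**Figure D2:**
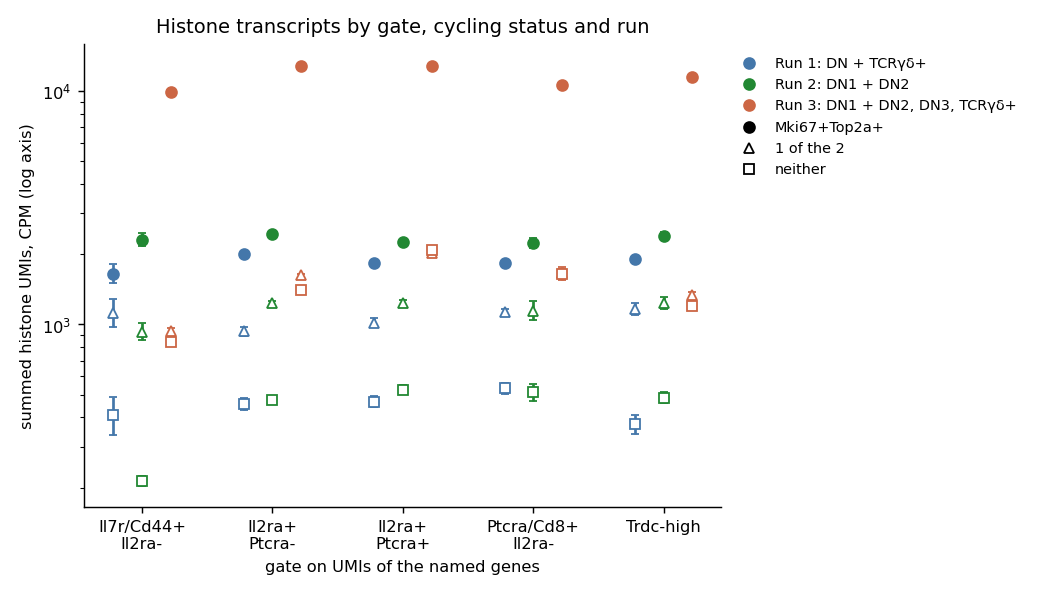
Summed histone CPM (log axis) by gate, run and cycling status, with exact Poisson 95% intervals. Filled circles are cells with Mki67 and Top2a, triangles cells with 1 of the 2 and squares cells with neither. Cycling cells of run 3 lie between 9879 and 12849 CPM, above every class of runs 1 and 2.

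All 5 families were higher in the cycling cells of run 3 than in those of the other runs, but not by the same factor. H1 genes summed to 146 CPM in run 1, 101 in run 2 and 2852 in run 3, and H3 genes to 45.4, 53.1 and 1325. H2A genes summed to 1425, 1896 and 6584 CPM, a smaller step. H2B genes gave 116, 166 and 820.1 CPM and H4 genes 138, 154 and 834. Of 52 members with at least 20 UMIs in the cycling cells of each run, the median was 5.71 times higher in run 3 than in run 1 and 5.27 times higher than in run 2. For 18 members run 3 was over 10 times both other runs, among them Hist1h1b, Hist1h2ae, Hist1h3c and Hist1h4d. For 11 it was under 2 times both, among them Hist1h4i, Hist3h2a, Hist4h4 and Hist2h2be. Hist1h4i, an H4 gene, had 61.9, 92.6 and 68.1 CPM, while its relative Hist1h4d had 40.9, 20.5 and 617.

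To ask which members go with the cycling state, counts were summed by run and class and compared with edgeR's quasi-likelihood test, with run as a block and p-values adjusted over all genes by Benjamini-Hochberg. Of 68 members, 67 were in both gene references and 60 of these passed the filter on low counts, and 51 of them were higher in cycling cells and 0 lower. Of all 11799 genes tested, 16.8% were higher and 19.2% lower. At an unadjusted p under 0.05, 53 members differed. The median difference was 2.71 on the log2 scale over the tested members and -0.09 over all genes. Of the 51, 50 were higher in each of the 3 runs, and Hist1h1d in 2. Without run 3, 31 of 57 tested members rose, and without the block for the run 4 did. By family, 4 of 5 tested members rose for H1, 15 of 16 for H2A, 11 of 15 for H2B, 10 of 11 for H3 and 11 of 13 for H4. The runs are separate libraries of different sorts. With run as a block, these p-values measure how the difference within a run varies over the libraries, and not the spread between animals.

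Among the linker histones, Hist1h1b rose most. It had 66.7, 32.5 and 1579 CPM in the cycling cells of runs 1, 2 and 3 and 8.24, 1.74 and 86.7 in resting cells, a log2 difference of 3.90 ± 0.24 (SE, 3 runs; adjusted p = 0.00076, edgeR). Hist1h1e had 47.5, 17.2 and 508 CPM against 11.2, 6.60 and 121 (log2 difference 1.94 ± 0.18, adjusted p = 0.0017, edgeR). Both genes were higher in cycling cells of every run. Hist1h1c, the third H1 gene by UMIs, had 14.3, 31.2 and 200.5 CPM in cycling cells and 20.7, 59.6 and 125 in resting cells, and its log2 difference of -0.17 ± 0.31 did not pass.

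For the H2A genes, Hist1h2ap had 926, 1646 and 2993 CPM in cycling cells and 131, 123 and 295 in resting cells. The run values of the 2 classes did not overlap, and the log2 difference was 3.37 ± 0.17 (adjusted p = 0.00051, edgeR). Single cells were not compared. Hist1h2ae had 53.5, 37.9 and 2189.7 CPM against 13.6, 5.12 and 159 (3.02 ± 0.32, adjusted p = 0.0022, edgeR). Its level in resting cells of run 3 exceeded that in cycling cells of the other runs, so only the comparison within a run separates the class values. Hist1h2ab had 6.78, 6.15 and 545 CPM against 1.52, 0.434 and 29.5. Hist1h2al had 289.6 and 30.2 CPM in cycling cells of runs 1 and 2 and 43.8 and 2.65 in resting cells, and it was not tested because run 3 does not list it.

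The H2B, H3 and H4 leaders followed the same order with few exceptions. Hist1h2bj, an H2B gene, had 33.6, 28.0 and 115 CPM in cycling cells against 10.1, 1.56 and 6.96 in resting cells, and Hist2h2bb had 4.12, 4.54 and 118 against 1.41, 1.22 and 9.87. Both rose. Hist1h2bc, the H2B gene with the most UMIs in resting cells of every run, had 13.1, 34.1 and 68.9 CPM in cycling cells against 37.7, 43.0 and 36.9 and did not pass. Hist1h3c rose most among the 3 H3 leaders, with 12, 11.6 and 605 CPM against 2.93, 0.782 and 23.8 (log2 difference 3.95 ± 0.47, adjusted p = 0.0028, edgeR). Hist1h3e had 6.46, 4.82 and 266 CPM against 3.15, 3.0 and 53.3, and Hist1h3f 0.977, 1.12 and 137 against 0.109, 0.434 and 19.7. Hist1h3b had the largest log2 difference of all members, 4.94 ± 0.56 (adjusted p = 0.0025, edgeR). For H4, Hist1h4d had 40.9, 20.5 and 617 CPM against 7.27, 2.21 and 89.9 (2.88 ± 0.13, adjusted p = 0.00051, edgeR). Hist1h4i had 61.9, 92.6 and 68.1 CPM against 26.5, 17.1 and 13.1 and rose by 2.1 ± 0.23, and Hist1h4h had 6.29, 5.80 and 67.9 against 3.90, 3.95 and 15.1.

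**Figure D3:**
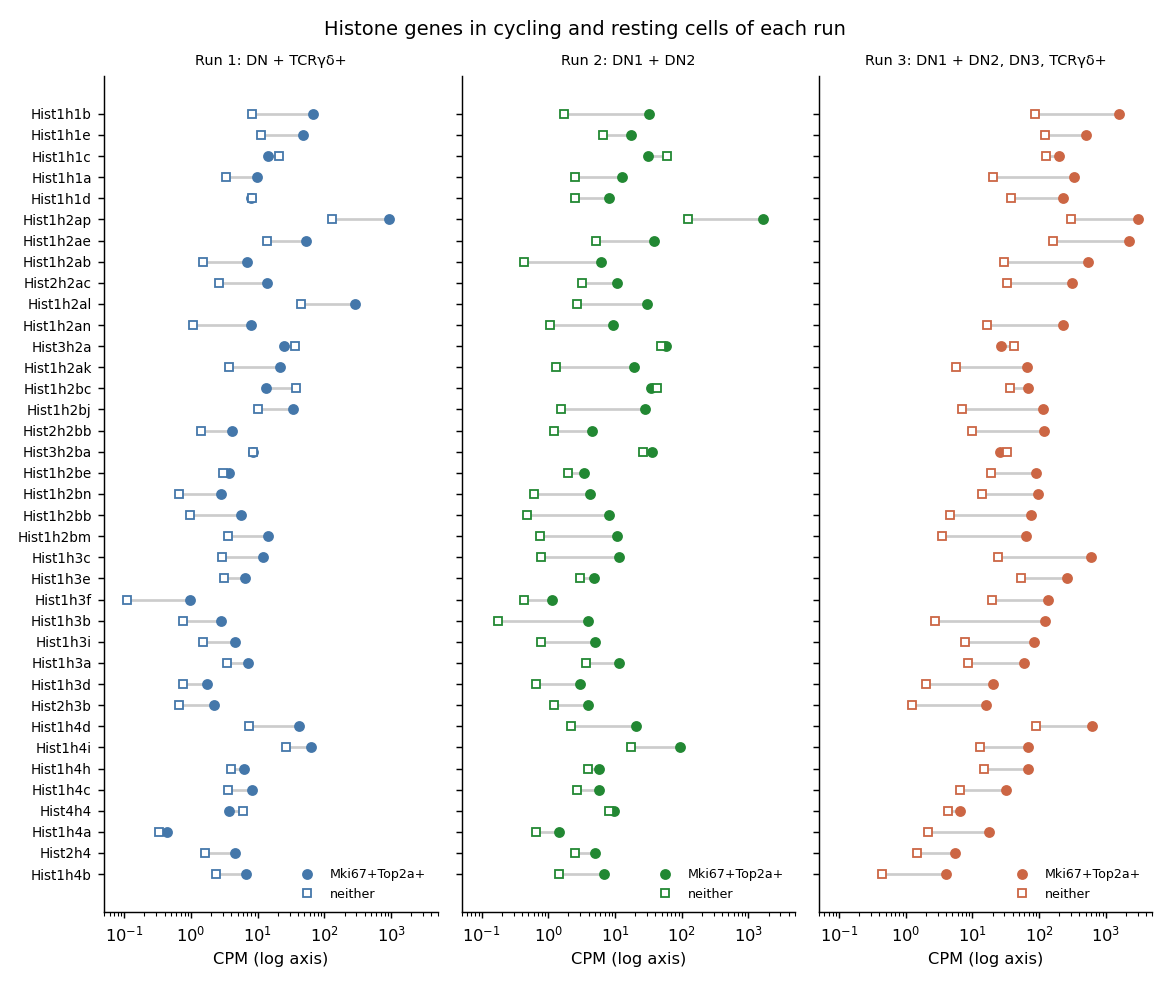
CPM (log axes) of the members with the most UMIs in each family, 1 panel per run, for cycling cells (filled circles) and resting cells (open squares). Most circles lie right of their squares in all panels, while Hist1h1c, Hist1h2bc, Hist3h2a, Hist3h2ba and Hist4h4 lie close together or change order between runs.

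Of the 9 tested members that were not called, 6 had a log2 difference within 0.5 of 0: Hist3h2a (-0.24), Hist1h2bc (-0.21), Hist1h1c (-0.17), Hist2h2be (-0.06), Hist3h2ba (0.09) and Hist4h4 (0.17). This limit was chosen after the values were seen. The other 3 were Hist2h3c1 (0.87), Hist1h4n (1.22) and Hist1h2bg (1.29). These differences average over gates, whose mix differed between the classes. Il7r/Cd44+ Il2ra- cells were 69 of 2167, 1972 of 5197 and 1006 of 3269 resting cells in runs 1, 2 and 3. They were a smaller part of the cycling cells. Between resting gates, Hist3h2a, Hist3h2ba and Hist4h4 were higher in Il2ra+Ptcra+ cells, and the other flat members were not called. The 6 flat members held 3.63%, 7.45% and 2.67% of the histone UMIs of cycling cells in runs 1, 2 and 3 but 24.6%, 47.0% and 17.4% of those of resting cells. Hist3h2a, an H2A gene outside the large clusters, had 24.6, 57.4 and 26.9 CPM in cycling and 35.6, 49.3 and 41.8 in resting cells. Its H2B neighbour Hist3h2ba had 8.57, 35.6 and 26.0 CPM against 8.57, 26.4 and 33.4. Hist4h4, an H4 gene alone on chromosome 6, had 3.69, 9.50 and 6.46 CPM against 5.96, 8.03 and 4.29, and Hist2h2be, an H2B gene, had 3.53, 8.80 and 2.92 against 6.62, 6.38 and 3.07. In each case the classes overlapped over the runs.

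Most of the flat members are annotated to a poly(A) signal. This signal, the letters AATAAA, stood within 50 bases of an annotated transcript end in 5 of the 6, all but Hist1h2bc, against 6 of the 51 members that rose and 15 of all 68. Over all 9 tested members that were not called, it stood there in 6. The median longest transcript was 1853 bases for the 6 and 520.0 for the 51. The stem-loop was found in 4 of the 6, not in the annotated transcripts of Hist1h2bc and Hist2h2be, and 2 of the 4 are shown for comparison with those of Hist1h2ae and Hist1h4d.
Hist3h2a, chr11:58955167-58955192, plus strand: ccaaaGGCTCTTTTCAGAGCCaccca
Hist1h1c, chr13:23739507-23739532, plus strand: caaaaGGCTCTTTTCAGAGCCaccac
The 16 bases in capitals are the same as in Hist1h2ae, but the annotated transcript goes on for 1643 bases past them in Hist3h2a and 840 in Hist1h1c. Hist3h2a overlaps another gene on its strand, so its UMIs may include that gene's. Among members annotated over 100 bases past the stem-loop, 15 of 23 rose, 6 did not pass and 2 were not tested. Among those annotated to 100 bases or fewer, 21 of 23 rose, 1 did not pass and 1 was not tested. This is a description of the annotation, and which transcript form the UMIs came from was not tested.

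**Figure D4:**
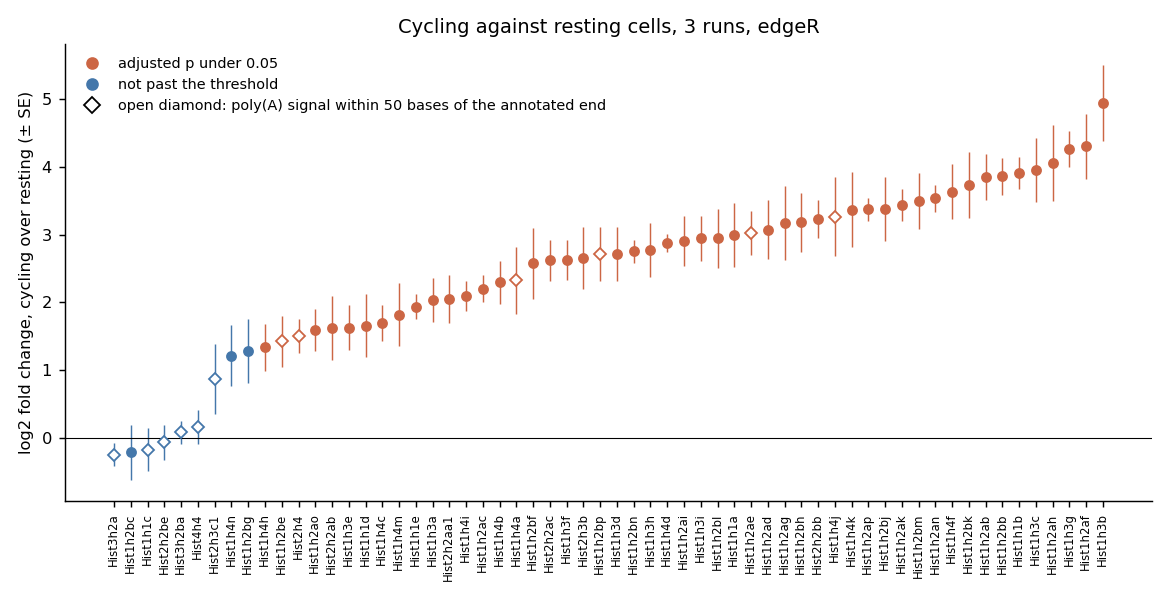
Log2 fold change, cycling over resting, with the SE derived from edgeR's F statistic (y axis), for the 60 tested members in rising order, over 3 runs. Orange marks the 51 past the adjusted threshold and blue the 9 that are not, and open diamonds mark members with a poly(A) signal within 50 bases of an annotated end. The 6 members nearest 0 include 5 diamonds.

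Among cells with Mki67 or Top2a the levels followed the balance of S-phase and G2/M-phase transcripts. For such cells with at least 10 UMIs over 20 S-phase genes (such as Mcm2 and Pcna) and 20 G2/M genes (such as Ccnb1 and Plk1), the S share was the part of those UMIs on S-phase genes, and no histone gene is on either list. In 10 bins of the S share, the summed histone level was lowest in the bin of highest S share in every run, at 699, 355 and 1554 CPM. It was highest in bin 4 of run 1 (1986 CPM), bin 5 of run 2 (2724) and bin 2 of run 3 (16635), counting from the lowest S share. The highest bin was 2.84, 7.67 and 10.7 times the last and 1.11, 1.43 and 1.22 times the first. The level therefore fell off toward the cells whose listed UMIs were nearly all on S-phase genes, and changed less toward the G2/M end. In resting cells of runs 1, 2 and 3 the S-phase genes summed to 2180, 1370 and 748 CPM. The G2/M genes summed to 627, 270 and 186 CPM there. A high S share can thus also go with few G2/M transcripts, and it does not by itself mark cells in S phase.

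**Figure D5:**
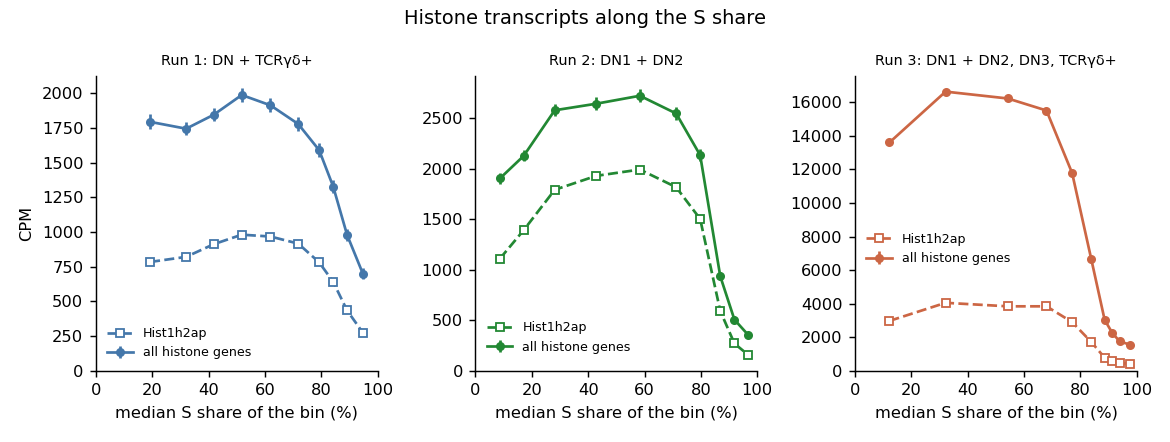
Summed histone CPM (filled circles, Poisson 95% intervals) and Hist1h2ap CPM (open squares) against the median S share of 10 bins of cells, 1 panel per run with its own y axis from 0. Both lines are lowest at the right, at 699, 355 and 1554 CPM for all histone genes in runs 1, 2 and 3.

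The highest and lowest tertiles of the S share were compared in the same way. They were cut within each run, so their limits differed between runs. S-leaning cells had S shares from 80%, 81.2% and 89.3% upward in runs 1, 2 and 3. G2/M-leaning cells had S shares up to 50%, 39.3% and 66.7%. In run 3 some cells called G2/M-leaning therefore had more S-phase than G2/M UMIs. The S-leaning tertiles had 1104, 754 and 1911 histone CPM in runs 1, 2 and 3, the middle ones 1825, 2554 and 9130.2, and the G2/M-leaning ones 1817, 2279 and 15721. Of 54 members tested, 47 were lower in S-leaning cells and 0 higher, where 11.7% of all 10747 genes were lower and 11.1% higher. The other 7 were lower as well by their estimates, with an unadjusted p under 0.05. The median log2 difference was -2.07 over the members and 0.00 over all genes. All 5 tested H1 genes fell, as did 12 of 13 H2A, 13 of 15 H2B, 9 of 10 H3 and 8 of 11 H4 genes.

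Hist1h2ap had 513, 462 and 508 CPM in S-leaning and 869, 1517 and 3709.6 CPM in G2/M-leaning cells, counted over genes shared by the references (log2 difference -1.80 ± 0.31, adjusted p = 0.0036, edgeR). Hist1h1b had 41.7, 12 and 199.6 CPM against 57.5, 26.5 and 1897 (-1.87 ± 0.47, adjusted p = 0.020, edgeR). The run values of the tertiles do not overlap for Hist1h2ap and overlap over the runs for Hist1h1b, where each run gave the same order. Hist1h3c had 7.72, 3.08 and 39.9 CPM against 14.6, 14.9 and 856 (-3.45 ± 0.56, adjusted p = 0.0027, edgeR). Hist3h2a and Hist3h2ba, which did not separate cycling from resting cells, fell by 1.23 ± 0.12 and 1.36 ± 0.13 in S-leaning cells. Hist3h2a had 14.6, 26.4 and 19.3 CPM against 34.3, 77.2 and 35.1.

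The tertiles also differed in the cycling markers and in depth. Cells with both Mki67 and Top2a made up 33.3%, 19.0% and 38.6% of the S-leaning tertiles and 82.2%, 81.7% and 86.5% of the G2/M-leaning ones. Their median depths were 7670.0, 8035 and 14088 UMIs against 10879, 10730.0 and 18619. With only cells that had both markers, the histone level was 1474, 1268 and 2403 CPM in S-leaning and 1882, 2329 and 16946 in G2/M-leaning cells, and 44 of 51 tested members were lower in S-leaning cells. Near a tertile limit, within 5 points, lay 708, 457 and 945 cells. With DESeq2 the count fell from 47 to 28, and with at least 3 Mki67 and Top2a UMIs required it fell to 30. Without the block for the run, 0 members passed in edgeR.

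Cycling cells of the Il2ra+Ptcra+ and Il2ra+Ptcra- gates were then compared, to ask whether histone levels differ between these gates once cells cycle. Run 2 was sorted for DN1 and DN2 cells only, so its 387 cycling Il2ra+Ptcra+ cells were not sorted as DN3. The comparison is thus between gates and not between sorted stages, though it is called cycling stage below. Of 54 members tested, 0 were higher and 1 lower in the Il2ra+Ptcra+ cells, where 5.7% of 10128 genes were higher and 6.88% lower. At an unadjusted p under 0.05, 3 members differed. The one called was Hist1h2bp, an H2B gene of low level, with 2.08, 2.01 and 9.0 CPM in Il2ra+Ptcra+ and 6.20, 6.62 and 11.3 in Il2ra+Ptcra- cells (log2 difference -0.69 ± 0.22, adjusted p = 0.042, edgeR). It was lower in each of 3 runs, but DESeq2 called 0 members and the call was lost without run 2 and without the block for the run. All 54 differences lay between -0.69 and 0.45 with a median of 0.01.

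The leading members differed little here. Hist1h2ap had 942, 1583 and 3148 CPM in cycling Il2ra+Ptcra+ cells and 983, 1715 and 3128 in cycling Il2ra+Ptcra- cells, a log2 difference of -0.02 ± 0.04. Hist1h1b differed by 0.05 ± 0.05, Hist1h2ae by -0.08 ± 0.05 and Hist1h4d by -0.03 ± 0.06. These did not pass the test, and their standard errors are small beside the cycling difference of 3.37 for Hist1h2ap.

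Resting cells of the Il2ra+Ptcra+ gate were compared with those of the Il7r/Cd44+ Il2ra- gate, called resting stage below. The 659 resting Il2ra+Ptcra+ cells of run 2 were likewise not sorted as DN3. Of 31 members tested, 9 were higher in resting Il2ra+Ptcra+ than in resting Il7r/Cd44+ Il2ra- cells and 0 lower, where 9.22% of 10203 genes were higher and 9.07% lower. The median log2 difference was 0.68 over the members and 0.04 over all genes. Hist3h2ba led, with 11.9, 40.2 and 63.1 CPM against 3.53, 6.93 and 6.82 (2.65 ± 0.24, adjusted p = 0.0040, edgeR). Hist1h2ap had 158, 208 and 564 CPM against 67.0, 29.4 and 111 (2.11 ± 0.27, adjusted p = 0.0079, edgeR). Both were higher in each run. Hist4h4 had 8.41, 13.9 and 8.46 CPM against 0, 4.22 and 1.48 (1.89 ± 0.37), Hist3h2a differed by 1.11 ± 0.25 and Hist1h2an by 1.20 ± 0.32. The other 4, Hist1h1a, Hist1h1b, Hist1h1d and Hist1h2ae, were higher in runs 2 and 3 only.

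This comparison rests on fewer cells and on gates that also differ in other markers. Run 1 had 69 resting Il7r/Cd44+ Il2ra- cells against 1972 in run 2 and 1006 in run 3. Without run 1, 22 members were higher and 1 lower in edgeR, and without run 2 or without run 3, 0 were called (21 tested without run 3). DESeq2 called 3 members, and edgeR without the block for the run called 0. A list of 5 natural killer and innate lymphoid markers summed to 686, 1108 and 835 CPM in all Il7r/Cd44+ Il2ra- cells and 599, 261 and 313 in Il2ra+Ptcra+ cells, and its part in the result was not tested.

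Genes that work beside the histones were read out of the same comparisons. Of 11 replication-independent variants, which are made outside S phase too, 6 were higher in cycling than in resting cells and 0 lower. Over all genes tested, 16.8% were higher and 19.2% lower. H2afz, the H2A.Z gene, had 4520 CPM in cycling cells of run 1, 4809 in run 2 and 2584 in run 3, against 2169.5, 1189 and 546 in resting cells (log2 difference 1.85 ± 0.22, adjusted p = 0.0027, edgeR). Its level in cycling cells was lowest in run 3, where the sum of the histone members was highest. H3f3a rose by 0.44 ± 0.10, and H3f3b, whose difference was 0.32 ± 0.12, did not pass. Both encode H3.3.

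Of 16 genes for histone transcription and mRNA 3′ processing, 13 were higher in cycling cells and 0 lower. Of 14 histone chaperones and importers 12 were higher and 0 lower, against 16.8% and 19.2% of all genes. Slbp had 510.0, 426 and 292 CPM in cycling and 275, 190.2 and 86.1 in resting cells (1.34 ± 0.16, adjusted p = 0.0030, edgeR). Casp8ap2 rose by 0.61 ± 0.13 and the exonuclease gene Eri1 by 1.03 ± 0.10. Among the chaperones, Npm1 rose by 0.54 ± 0.11, Ssrp1 by 0.87 ± 0.11 and Rbbp4 by 0.79 ± 0.10. These named genes differed by less than the median of 2.71 for the histone members, whereas the chaperone Asf1b rose by 3.04 ± 0.41 and the variant H2afx by 2.87 ± 0.18.

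Between the tertiles of the S share, these lists split, where 11.1% of all genes tested were higher in S-leaning cells and 11.7% lower. Of the variants 7 were lower and 1 higher in S-leaning cells, with H2afz at -0.69 ± 0.13, H3f3b at -0.54 ± 0.08 and H3f3a, not past the threshold, at -0.17 ± 0.06. Of the 16 transcription and processing genes 7 were higher, 1 lower and 8 not called. The 7 were E2f1, Ccne2, Ccne1, Casp8ap2, Slbp, Cdk2 and Lsm10, and E2f1, Ccne2 and Ccne1 differed most, by 2.11, 1.95 and 1.27. Of the 14 chaperones 6 were higher, 0 lower and 8 not called. Slbp had 592, 482 and 226 CPM in S-leaning and 333, 220.3 and 241 in G2/M-leaning cells (0.60 ± 0.19, adjusted p = 0.049, edgeR), so run 3 went the other way. Casp8ap2, which acts at histone gene loci, was higher by 0.79 ± 0.14, and Npm1 by 0.28 ± 0.06. Chaf1b, a subunit of the chaperone that loads H3 and H4 at replication forks, was higher by 1.46. The histone members and most called variants thus took the opposite direction from most called genes of the processing and chaperone lists in this comparison. Because the tertiles were cut on S-phase and G2/M genes, unlisted genes that vary with those lists differ by the cut itself. The direction of such genes is therefore not a separate result, and the histone members are unlisted genes too.

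Between cycling Il2ra+Ptcra+ and Il2ra+Ptcra- cells, 0 variants were higher and 3 lower (Cenpa, H2afv and H2afy), against 5.7% and 6.88% of all genes. Among 15 processing genes 0 differed, with 3 at an unadjusted p under 0.05 in edgeR. Npm1 was the 1 chaperone that was higher, by 0.21 ± 0.04. Between resting Il2ra+Ptcra+ and resting Il7r/Cd44+ Il2ra- cells, 1 of 10 tested variants was higher (H1fx, 2.43 ± 0.35) and 1 lower (Cenpa, -0.92 ± 0.19). Over all genes tested there, 9.22% were higher and 9.07% lower. In that comparison 0 of 15 processing genes and 0 of 14 chaperones passed in edgeR, with 3 of each list at an unadjusted p under 0.05.

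Promoters of the members are shown as a description, and their part in the levels was not tested. RefSeq (GRCm38.p6) gave promoters for 62 members, from 250 bases before the start to 50 after. On either strand, CCAAT was in 53 of the 62 (85.5%) and in 37.9% of all 27025 RefSeq promoters, and TATAAA was in 35 (56.5%) against 14.2%. The CCAAT letters were in every H1, H2A, H2B and H3 promoter of the 62 but in 3 of 12 H4 promoters (25.0%). ATTTGCAT, the octamer that POU factors bind, was in 13 (21%) against 1.75% of all, in 7 of 18 H2A and 6 of 16 H2B promoters and in 0 of the other families. AAACACA, the H1 box, was in 5 of 6 H1 promoters (83.3%) and in 9 of all 62 (14.5%), against 7.14% of all promoters. These are counts of letters and not of binding. Neighbouring H2A and H2B genes on opposite strands can share promoter bases, and a shared site is then counted for both.

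The 150 bases before the start are given for a linker histone that rose, an H2A gene that rose and Hist3h2ba, one of the 3 flat H2B genes, with these motifs on either strand in capitals.
Hist1h1b, chr13:21780626-21780775, minus strand: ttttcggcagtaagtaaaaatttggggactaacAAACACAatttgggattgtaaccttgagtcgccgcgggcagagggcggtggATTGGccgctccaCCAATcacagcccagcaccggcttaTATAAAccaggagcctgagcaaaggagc
Hist1h2ae, chr13:23571221-23571370, minus strand: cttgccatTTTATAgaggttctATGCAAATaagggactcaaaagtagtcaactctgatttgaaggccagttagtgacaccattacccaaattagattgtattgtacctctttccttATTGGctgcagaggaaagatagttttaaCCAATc
Hist3h2ba, chr11:58948761-58948910, plus strand: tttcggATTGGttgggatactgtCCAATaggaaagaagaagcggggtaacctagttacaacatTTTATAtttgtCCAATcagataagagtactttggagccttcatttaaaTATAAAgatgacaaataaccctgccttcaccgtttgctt
The promoter of Hist3h2ba, which did not separate cycling from resting cells, holds CCAAT and TATAAA as do those of Hist1h1b and Hist1h2ae, which rose. The octamer stands in the Hist1h2ae stretch and the H1 box in that of Hist1h1b alone of these 3. The Hist1h2ae stretch overlaps the promoter of its H2B neighbour Hist1h2bg on the other strand. Its octamer and TATAAA are the same sites as in that promoter, and which gene they serve was not tested.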

How the data were processed

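The authors deposited 3 tables of raw UMI counts per gene and cell, 1 per library, made with 10x Genomics 3′ kits (V2 or V3.1) and Cell Ranger against mm10; which kit went with which run is not given in the sources used here, and the run 3 header names a later Cell Ranger. The submitters' processing notes also name R 3.6.3 and Seurat 2.3. The members and gene lists were chosen with earlier results of these data known. Cells were kept at 500 to 5000 genes and at most 7% mitochondrial counts, and gated on UMIs. B-like, myeloid-like, erythroid-like and ungated cells were set aside. No doublets were removed in the main comparison, and the 8% of cells of each run with the highest Scrublet score were left out as an alternative. Counts of each class were summed per run over 27840 genes shared by both references and tested with edgeR 4.0.16 (glmQLFit, TMM, filterByExpr, run as block, two-sided, Benjamini-Hochberg, threshold 0.05; R 4.3.3). Genes that define classes or gates were left out of the tested tables. Standard errors were derived from the quasi-likelihood F statistic, in which edgeR moderates the variance of a gene with that of other genes. Residual degrees of freedom were 2, and the median prior ones ran from 4.0 for cycling to 23.4 for cycling stage. They are therefore not the spread of a member over runs alone. DESeq2 1.42.0 was an alternative. Levels are CPM over all UMIs of a class. Single-gene values of the S-share tertile, stage and partner-gene comparisons are instead over the shared genes.

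Both classes of a run come from 1 library, and deviations of the 2 classes from their class means correlated at 0.43 to 0.94 in every run and comparison, so the runs pair them. On simulated counts with 200 changed genes, 182, 195, 189 and 137 were recovered for cycling, S share, cycling stage and resting stage, over 11799, 10747, 10128 and 10203 genes. The counts were drawn from the model fitted to these data, so recovery holds for that model and the simulated fold changes only. False calls are not given here. Members could all be named, since their symbols define them. The 3 with the most UMIs in each family, those called against the main direction and those in 1 reference were described in full. For other lists the rule was the counts and the 3 genes with the most UMIs. Further genes named there (Asf1b, H2afx, Chaf1b, Cenpa, H2afv, H2afy, H1fx, E2f1, Ccne1, Ccne2, Cdk2, Lsm10) were chosen after their values were seen. Hist2h2bb had 2 entries in runs 1 and 2, which were summed for levels. Stem-loops, A runs and unique 50-base windows were read from GENCODE M21 transcripts (GRCm38). Figures and sums used Python 3.11.15, scanpy 1.11.5 and scipy 1.17.1. Totals ranged from 39947415 to 98533329 UMIs, and exact Poisson intervals cover counting error only.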

Additional observations from a re-analysis of the deposited data

Results flagged for a closer look

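Among the 6 members whose mean difference between cycling and resting cells was near 0, the ratio of cycling to resting CPM lay on opposite sides of 1 in different runs, beyond its counting interval. The difference between runs was not tested, since each run is 1 library. The ratio was 0.691 in run 1, 0.523 in run 2 and 1.60 in run 3 for Hist1h1c, and 0.348, 0.793 and 1.87 for Hist1h2bc. For Hist3h2a it was 0.691, 1.16 and 0.644. Hist2h2be had 0.533 in run 1 and 1.38 in run 2, Hist3h2ba 1.35 in run 2 and 0.779 in run 3, and Hist4h4 0.619 in run 1 and 1.51 in run 3. Hist1h1c and Hist1h2bc were thus higher in cycling cells in run 3 alone, and Hist3h2a in run 2 alone.

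Cells outside the comparisons also held histone transcripts. In run 3, 552 cells had over 5000 genes and were left out; they summed to 11895 histone CPM, close to the 12415 of its cycling cells. B-like cells of run 3, also set aside, had 14841 CPM in 98 cycling cells and 1341 CPM in 318 resting cells.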

How the results depend on the processing

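Results rest on 3 libraries, each of a different sort, so a count of calls depends on each of them. The block for the run carried the calls: without this pairing of classes by run, 4 members were called between cycling and resting cells, 0 between S-leaning and G2/M-leaning cells, 0 between cycling stages and 0 between resting stages, in edgeR. Counted in the direction of most calls, leaving out each run in turn gave 31 to 56 calls for cycling, 39 to 56 for the S share, 0 to 1 for the cycling stages and 0 to 22 for the resting stages. The 31 were of 57 members tested without run 3, and the 22 came without run 1, where 1 other member was called lower. DESeq2 called 28, 0 and 3 members for the S share, the cycling stages and the resting stages. With cells thinned to 2000 UMIs, fewer members could be tested, and 33 of 40, 11 of 14, 0 of 16 and 4 of 8 were called in the 4 comparisons; the third could use runs 1 and 3 only. Requiring 3 Mki67 and Top2a UMIs gave 30 calls for the S share; for resting stages it leaves the cells the same and was not run.

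The ratio of summed histone CPM between cycling and resting cells was 3.84 in run 1 and 11.6 in run 3 after thinning, 5.97 in run 2 without doublets, and 8.99 and 8.22 in run 3 with a 5% mitochondrial limit and with 3 Mki67 and Top2a UMIs. For these ratios and the calls above, thinned cells were gated and classed again on the thinned counts. This left 250, 162 and 416 cycling cells in runs 1, 2 and 3, against 1613, 1283 and 1549. The median histone UMIs of thinned cells kept the classes of the full counts. Without Hist1h2ap, an alternative chosen after seeing the data, it was 2.81, 2.53 and 8.50 in runs 1, 2 and 3. Limiting cycling and resting cells to the gates with Il2ra, or the tertiles to cells with both markers, also chosen after seeing the data, gave 50 of 58 and 44 of 51 calls. Of the 64 alternative values for whole comparisons 39 stayed within their limits and 25 moved. For single members, 591 values stayed on the same side of the threshold, 57 lost the call and 10 gained it. Where either fit called the member, 0 reversed direction. Changes of sign between fits that both did not call the member were not counted. The causes were not tested beyond the smaller tables named.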
